A study of Mus musculus with 24 samples.

Results

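Expression of 6 genes of the CCR2 pathway of monocyte recruitment was followed in mouse hearts during experimental autoimmune myocarditis (EAM). They are Ccl2, Ccl7, Ccl8 and Ccl12, grouped here as the 4 ligands, the receptor Ccr2, and Ly6c2, whose product marks the monocytes that carry the receptor. The genes were chosen by symbol, matched to Ensembl identifiers in GENCODE M21, and are 6 of the 41388 genes in the count table. Whole-tissue RNA from 24 hearts was sequenced, 4 EAM and 4 control hearts at each of 10, 15 and 21 days after the first immunization (D10, D15 and D21).

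CCR2 is the chemokine receptor by which classical, Ly6C-high monocytes leave the bone marrow and enter inflamed tissue. CCL2, CCL7, CCL8 and CCL12, grouped here as its ligands, are secreted by stromal cells, endothelium and macrophages, and they are encoded in one cluster of chemokine genes. Which receptor each of them acts on in the mouse was not tested here. In the heart, recruited CCR2+ monocytes become inflammatory macrophages and dendritic cells, distinct from the CCR2- macrophages that live in the healthy myocardium.

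All mice were wild-type male BALB/c (BALB/cAnNCrl), immunized at 8 to 10 weeks of age. EAM mice received a peptide of cardiac α-myosin heavy chain in supplemented complete Freund's adjuvant on days 0 and 7. Control mice received the same adjuvant emulsified with PBS, and mice of both arms were given pertussis toxin on day 0, so the controls were exposed to adjuvant and toxin rather than naive. The EAM samples were selected to contain inflammation as far as possible. At D10, however, the paper found no EAM mouse with raised CD45+ cells in the heart or raised cardiac troponin I. At D21 the EAM hearts were picked among mice with a raised proportion of CD45+ cells. Leukocyte transcripts in the D21 EAM group are therefore not independent of the selection. Total counts ran from 15814863 to 24980864 reads per heart, with a median of 19469782. The 4 D21 EAM libraries carry a different library code from the other 20 libraries, so that code and EAM cannot be told apart at D21. Labels give separate samples but not separate cages or experiments, and p-values measure the spread between these hearts.

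The ligand genes lie on the plus strand of chromosome 11 (GRCm38), in the order Ccl2 (chr11:82035571-82037453), Ccl7 (chr11:82045712-82047525), Ccl12 (chr11:82101845-82103400) and Ccl8 (chr11:82115185-82116799). Ccl11, which encodes the eosinophil attractant eotaxin, sits between Ccl7 and Ccl12, and Ccl1 follows Ccl8. Ccr2 is on chromosome 9 (chr9:124101950-124113557, plus strand) beside other chemokine receptor genes. Ly6c2 is on chromosome 15 (chr15:75108158-75111970, minus strand) near its close relative Ly6c1. The paper set aside reads that mapped to more than one place. Reads from the nearly identical parts of this pair may therefore be missing from both genes, so the level of Ly6c2 is uncertain.

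Of the 6 genes, 4 were matched in the RefSeq promoter table (GRCm38.p6). Ccl2 and Ccl7 were not matched, and the windows of Ccl12 and Ccl8 are shown as those of the 2 matched ligands, which are neighbours on the chromosome. Each line is the 250 bases before the start site, 5′ to 3′ on the plus strand, at chr11:82101595-82101844 for Ccl12 and chr11:82114935-82115184 for Ccl8. Capitals mark every run of at least 8 bases that occurs in both windows.
Ccl12: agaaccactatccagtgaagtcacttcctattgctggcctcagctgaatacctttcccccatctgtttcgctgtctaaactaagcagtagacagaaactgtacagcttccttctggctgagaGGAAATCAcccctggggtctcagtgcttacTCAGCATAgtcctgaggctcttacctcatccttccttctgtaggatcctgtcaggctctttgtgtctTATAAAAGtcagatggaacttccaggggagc
Ccl8: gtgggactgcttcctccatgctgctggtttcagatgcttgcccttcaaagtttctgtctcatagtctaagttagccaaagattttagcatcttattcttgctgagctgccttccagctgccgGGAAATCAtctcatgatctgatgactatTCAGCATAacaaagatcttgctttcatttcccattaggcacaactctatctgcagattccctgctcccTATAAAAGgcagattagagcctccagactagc
The windows share 3 such runs, in the same order and at nearly the same distance from the start site. GGAAATCA begins at position -128 in both genes, counted back from the start site, TCAGCATA at -98 in Ccl12 and -100 in Ccl8, and TATAAAAG, which contains a TATA box, at -31 and -32. Laid side by side without gaps, 36.0% of the 250 positions hold the same base. Among 32851 promoter windows of this length, GGAAATCA occurs on either strand in 0.983%, TCAGCATA in 0.481% and TATAAAAG in 1.51%. The TATA box letters TATAAA, searched on the sense strand, occur in 7.59% of all windows and in the Ccl8 and Ccl12 windows, and not in those of Ccr2 and Ly6c2. On both strands, the letters TGANTCA (AP-1 type), TTCNNNGAA (STAT type) and TTGCNNAA (C/EBP type) were not found in the windows of these 4 genes. Those letters occur in 6.75%, 7.02% and 9.56% of all windows, respectively, and a match or its absence is only a description of the sequence.

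Levels are given as CPM, counts divided by library size after scaling by the trimmed mean of M-values (TMM), for replicates 1 to 4 of a group in that order. The 8 hearts of a day were fitted on their own by the quasi-likelihood method of edgeR, and log2 fold changes of EAM over control are given with their standard error. A gene was called induced when its Benjamini-Hochberg false discovery rate (FDR) over all genes tested was under 0.01 and its change was at least 2-fold. All 6 genes were induced at D15. None passed these limits at D10, and Ccl8 and Ccr2 passed them at D21. Treating same-numbered D21 hearts as pairs, a pairing that the labels do not give, added Ccl2, Ccl7 and Ccl12. In whole tissue, a change in the number of cells and a change in RNA per cell cannot be told apart.

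**Figure D1:**
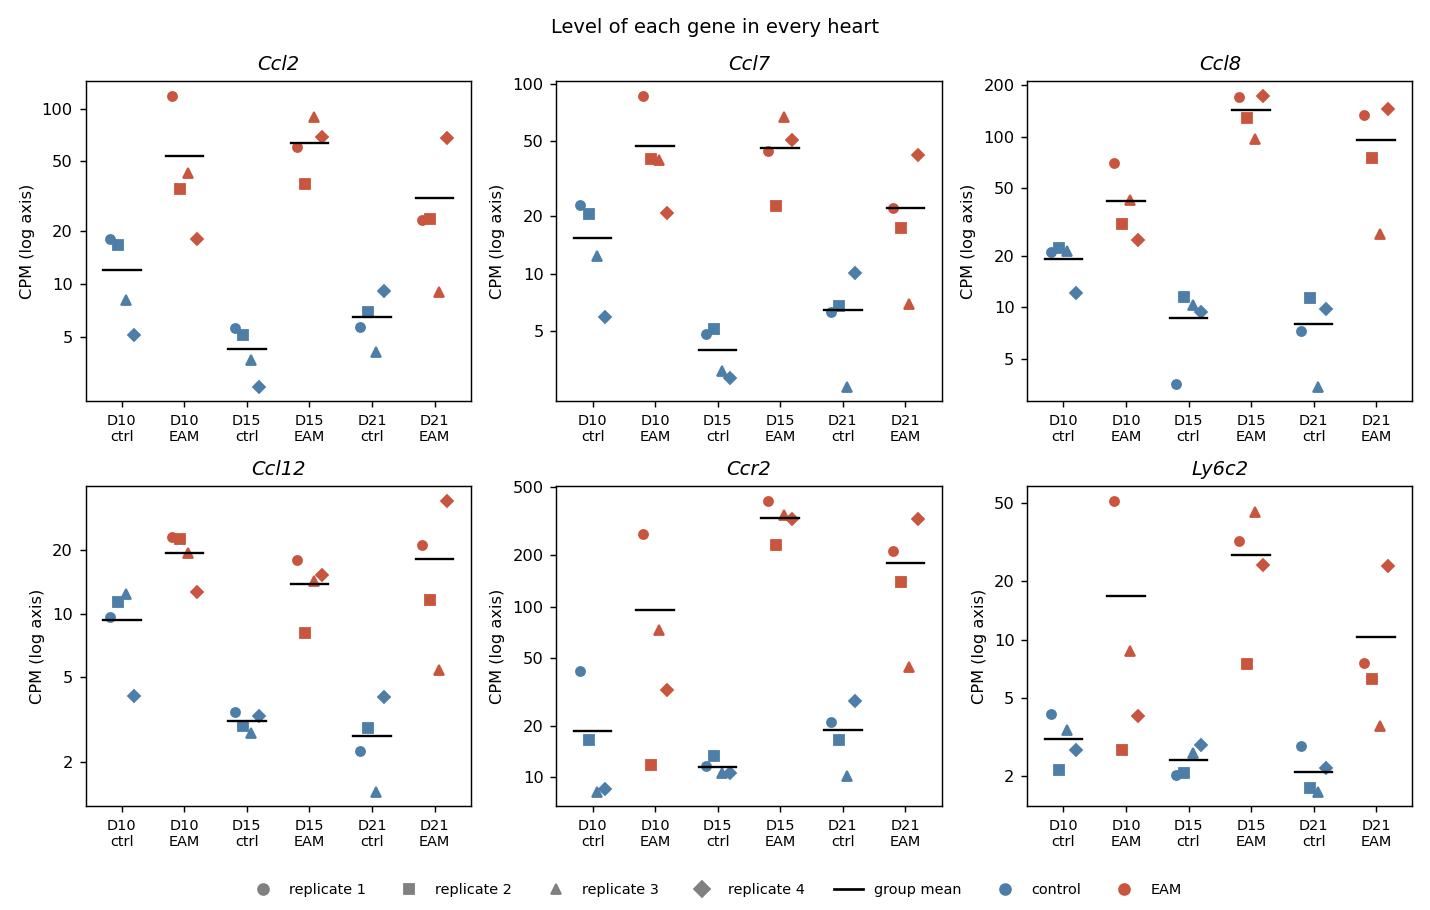
Level of each of the 6 genes in every heart, in TMM-normalized CPM on a log axis, by day and arm (blue, control; red, EAM); marker shapes give the replicate number and black lines the mean of 4 hearts. All D15 EAM hearts lie above all D15 controls in every panel, whereas at D10 one EAM heart, replicate 1, holds the highest level of every gene in its group.

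Ccl2, which encodes the main monocyte attractant MCP-1, measured 17.99, 16.7, 8.15 and 5.09 CPM in the D10 controls and 119, 34.97, 42.9 and 18.005 CPM in the D10 EAM hearts. The lowest EAM heart was only just above the highest control, and the group means differed by 2.15 ± 0.61 on the log2 scale (FDR = 0.328). At D15 the controls were at 5.63, 5.14, 3.68 and 2.59 CPM and the EAM hearts at 60.3, 37.1, 89.6 and 68.7 CPM. Ccl2 was thus 15.3-fold higher at D15 (3.94 ± 0.31 log2, FDR = 4.8e-06), with the weakest EAM heart still far above all controls. At D21 the controls were at 5.70, 6.92, 4.12 and 9.07 CPM and the EAM hearts at 23.0, 23.3, 9.03 and 67.6 CPM. Here EAM replicate 3 lay inside the control range, and the difference of 2.29 ± 0.57 log2 did not pass (FDR = 0.0198, or 0.00873 with same-numbered hearts as pairs).

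Ccl7 encodes MCP-3, a second CCR2 ligand, and its gene is the nearest neighbour of Ccl2. It measured 23.0, 20.5, 12.3 and 5.88 CPM in the D10 controls and 86.4, 40.1, 39.6 and 20.8 CPM in the D10 EAM hearts, and the groups overlapped. At D15 levels were 4.79, 5.14, 3.06 and 2.83 CPM in controls against 44.2, 22.6, 66.3 and 50.4 CPM in EAM hearts, an 11.9-fold difference (3.57 ± 0.35 log2, FDR = 1.6e-05). The D15 groups were well separated, and the D15 controls also lay below all D10 controls. At D21 Ccl7 was at 6.26, 6.72, 2.54 and 10.1 CPM in controls and 22.2, 17.4, 6.89 and 41.8 CPM in EAM hearts. Replicate 3 of the EAM hearts again overlapped the controls, and neither D10 (1.59 ± 0.50 log2, FDR = 0.328) nor D21 (1.83 ± 0.56 log2, FDR = 0.0386, or 0.00340 with pairs) passed.

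Ccl8, which encodes MCP-2, was the most abundant of the ligands per kilobase of exon in each of the 24 hearts, and in raw counts in 17 of them. Its D10 levels were 21.2, 22.2, 21.2 and 12.1 CPM in controls and 69.7, 30.9, 42.7 and 24.7 CPM in EAM hearts, without overlap but with a small difference (1.12 ± 0.33 log2, FDR = 0.328). By D15 the controls were at 3.54, 11.5, 10.3 and 9.37 CPM and the EAM hearts at 170, 129, 97.4 and 174 CPM, a 17.0-fold difference (4.09 ± 0.34 log2, FDR = 6.5e-06). Per kilobase of exon these EAM hearts were at 333, 253, 191 and 341 CPM, above the highest value of any other ligand in any heart (108 CPM, Ccl7 in D10 EAM replicate 1). At D21 the controls were at 7.22, 11.4, 3.42 and 9.78 CPM and the EAM hearts at 134, 75.4, 26.7 and 145 CPM. Ccl8 was the one ligand called at D21 in the fit without pairs, 12.3-fold higher (3.62 ± 0.58 log2, FDR = 0.00642), with every EAM heart above every control.

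Ccl12, the gene of the mouse ligand MCP-5, had the smallest D15 fold change of the 4 ligands. At D10 the controls were at 9.59, 11.4, 12.4 and 4.10 CPM and the EAM hearts at 22.9, 22.6, 19.3 and 12.6 CPM, so that the lowest EAM heart lay next to the highest control (1.03 ± 0.32 log2, FDR = 0.328). At D15 the controls were at 3.44, 2.95, 2.75 and 3.30 CPM and the EAM hearts at 17.8, 8.06, 14.2 and 15.2 CPM, a 4.55-fold difference (2.19 ± 0.24 log2, FDR = 3.2e-05). The D15 EAM hearts were therefore no higher in CPM than most D10 EAM hearts, while the controls were lower. At D21 Ccl12 measured 2.24, 2.88, 1.44 and 4.05 CPM in controls and 21.1, 11.6, 5.42 and 34.1 CPM in EAM hearts. Those groups did not overlap, and the 7.01-fold difference (2.81 ± 0.58 log2) just missed the limit (FDR = 0.0109, or 0.00476 with pairs).

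Ccr2, the receptor gene of the set, showed the largest D15 difference of the 6 genes. Its D10 levels were 41.7, 16.5, 8.20 and 8.53 CPM in controls and 268, 11.8, 72.4 and 32.3 CPM in EAM hearts. The 4 D10 EAM hearts spanned more than the difference between the arms, and replicate 2 was as low as the controls (2.35 ± 0.93 log2, FDR = 0.328). At D15 the controls were at 11.6, 13.2, 10.5 and 10.5 CPM and the EAM hearts at 419, 229, 345 and 328 CPM, a 29.6-fold difference (4.89 ± 0.20 log2, FDR = 7.2e-08). Both D15 groups were tight, and the gap between them was wide. At D21 the controls were at 21.0, 16.4, 10.2 and 28.0 CPM and the EAM hearts at 210, 139, 44.3 and 327 CPM. Ccr2 was called there too, 9.79-fold higher without overlap (3.29 ± 0.59 log2, FDR = 0.00777).

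Ly6c2, a surface antigen of inflammatory monocytes that is also made by some other leukocytes, was low in controls on all days. It was at 4.17, 2.15, 3.43 and 2.71 CPM in the D10 controls and 51.7, 2.72, 8.75 and 4.07 CPM in the D10 EAM hearts, where replicate 1 stood far above the other 3. At D15 it was at 2.03, 2.07, 2.64 and 2.89 CPM in controls and 32.2, 7.54, 45.04 and 24.05 CPM in EAM hearts, an 11.6-fold difference (3.53 ± 0.50 log2, FDR = 1.7e-04). EAM replicate 2 was the lowest of that group for Ccl2, Ccl7, Ccl12, Ccr2 and Ly6c2, but not for Ccl8. At D21 the controls were at 2.85, 1.73, 1.66 and 2.20 CPM and the EAM hearts at 7.59, 6.27, 3.61 and 23.96 CPM. The D21 groups did not overlap, although the difference was not called (2.34 ± 0.58 log2, FDR = 0.0192), nor was that at D10 (2.43 ± 0.89 log2, FDR = 0.328).

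The means of Ccl2, Ccr2 and Ly6c2 were highest in D15 EAM hearts and lower in D10 and D21 EAM hearts, and those of Ccl8 were highest at D15 and next at D21. Ccl7 (46.7 CPM at D10, 45.9 CPM at D15) and Ccl12 (19.4 CPM at D10, 18.1 CPM at D21) had their highest means in D10 EAM hearts, by margins much smaller than the spread within the groups. When the 6 group means of a gene were put in order, most neighbours in the order overlapped. No neighbouring pair was separate for Ccl2, Ccl7, Ccr2 or Ly6c2, while for Ccl8 D10 EAM was separate from D10 control and D10 control from D15 control. For Ccl12 the one separate pair was D10 control over D15 control.

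**Figure D2:**
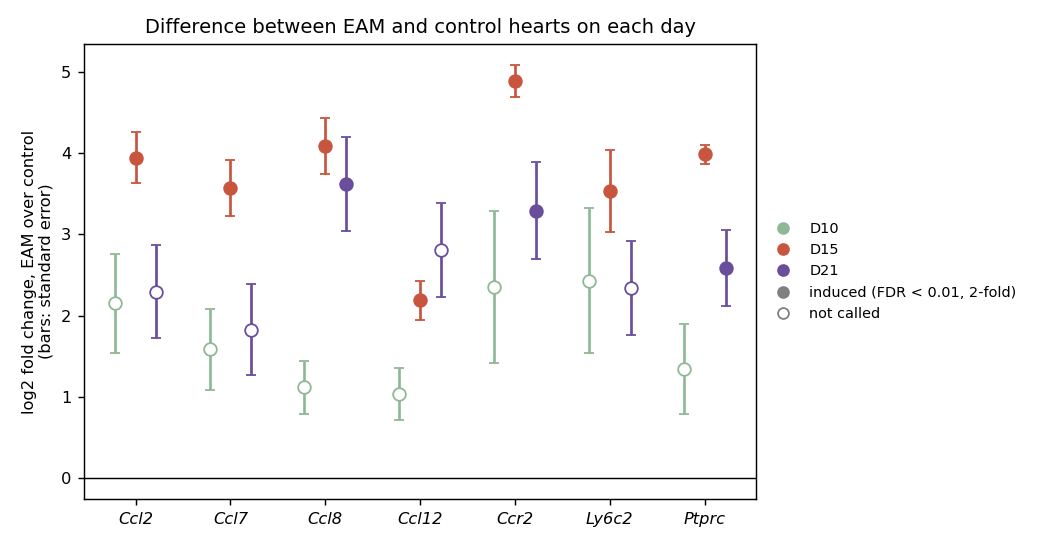
Log2 fold change of EAM over control hearts on each day for the 6 genes and for Ptprc, with standard errors (4 hearts a group); filled points passed the FDR of 0.01 and the 2-fold limit. Every gene is filled at D15 and open at D10, and among the 6 genes Ccl8 and Ccr2 are filled at D21.

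At D10, 0 of 6 genes were called by edgeR's quasi-likelihood test, as were 0.0% of the 15029 genes tested. All 6 had an unadjusted p under 0.05, a mark reached upward by 9.71% of genes, and 3 of the 6 (Ccl2, Ccl8 and Ccl12) had every EAM heart above every control, against 4.41% of genes. DESeq2, edgeR's likelihood ratio test and limma-voom also called none of the 6, while calling 0.319%, 0.299% and 0.0% of genes higher. Without EAM replicate 1 the log2 fold change was 1.40 for Ccl2, 1.10 for Ccl7, 0.76 for Ccl8, 0.94 for Ccl12, 1.04 for Ccr2 and 0.72 for Ly6c2, lower than with all hearts and least so for Ccl12, which was lowest (0.79) without control replicate 4. Ptprc, the gene of the leukocyte antigen CD45, measured 194 CPM in EAM replicate 1 and 27.7, 56.7 and 41.7 CPM in the other D10 EAM hearts, against 23.9 to 38.6 CPM in controls. Cardiomyocyte transcripts (6 genes summed) were at 16416 CPM in the same heart against 25078 to 29337 CPM in the other 3, and the part of tissue composition in the values was not tested. When the D10 EAM hearts were instead compared with all 12 controls, the 6 genes were all called, as were 4.07% of genes. Those controls include the D15 and D21 hearts, in which the mean levels of all 4 ligands were lower than in the D10 controls.

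At D15, 6 of 6 genes were induced, against 18.1% of the 15693 genes tested, and all 6 had separate groups, against 34.6% of genes. Calls at D15 held under each alternative test, normalization, filter and set of controls, and without any one heart. Ptprc rose as well (3.98 ± 0.12 log2, FDR = 1.4e-08, within the range of 2.19 to 4.89 log2 over the 6 genes), from 16.5 to 20.7 CPM in controls to 244 to 306 CPM in EAM hearts. Over the same hearts the summed cardiomyocyte transcripts ran from 24631 to 29071 CPM in controls and from 6744 to 17332 CPM in EAM hearts, and their part in the differences was not tested.

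At D21, 2 of 6 genes were induced, against 4.13% of the 15266 genes tested, and 4 (Ccl8, Ccl12, Ccr2 and Ly6c2) had every EAM heart above every control, against 17.8% of genes. With the replicate number as a block, treating the same-numbered D21 hearts as pairs, Ccl2 (FDR = 0.00873), Ccl7 (FDR = 0.00340) and Ccl12 (FDR = 0.00476) were called as well, whereas Ly6c2 was not (FDR = 0.0202), and 3.94% of all genes were called. The D21 calls depended on single hearts. Leaving out EAM replicate 3, the heart with the lowest level of all 6 genes and of Ptprc (48.9 CPM, against 96.3 to 229 CPM in the others), gave 6 calls, against 9.78% of all genes. Without EAM replicate 4 only Ccl8 was called, against 1.98% of genes. Without EAM replicate 1 or 2 no gene of the 6 was called (0.0265% and 0.053% of genes), and without any one control heart neither the 6 nor any other gene was called higher (0.0%). The D21 counts of the gene lists given later rest on the same fit. By limma-voom none of the 6 was called at D21 (FDR = 0.0145 for Ccl8 and 0.0151 for Ccr2), against 0.524% of genes. Ptprc was called at D21 as well (2.58 ± 0.46 log2, FDR = 0.00774). The summed cardiomyocyte transcripts were at 15923, 22045, 29809 and 12469 CPM in EAM replicates 1 to 4, against 25543 to 27450 CPM in controls, highest in the heart where the 6 genes were lowest, and their part in the differences was not tested. Log2 fold changes moved less than the calls: for Ccl8 they ran from 3.34 to 3.92, for Ccr2 from 2.83 to 3.60, and for Ly6c2 from 1.49 to 2.60.

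**Figure D3:**
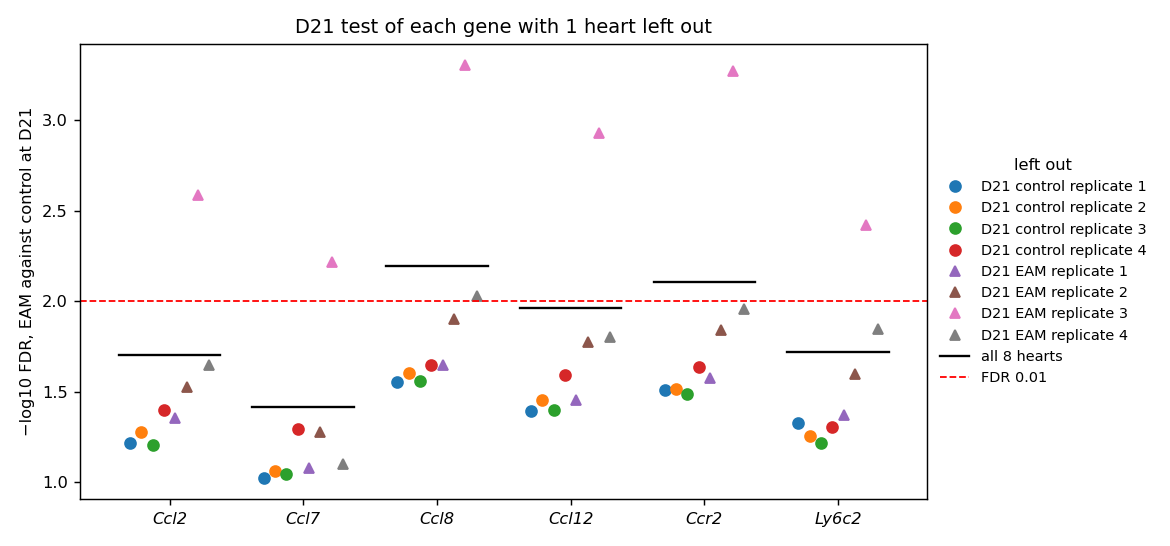
Negative log10 of the FDR of EAM against control at D21 for each gene, with all 8 hearts (black line) and with each heart left out in turn (circles, a control left out; triangles, an EAM heart left out); the dashed line is FDR 0.01. Without EAM replicate 3 all 6 genes lie above the line, and most other points lie below it.

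Whether the EAM effect itself changed between days was tested in a fit of all 24 hearts. From D10 to D15 it grew for Ccl8 by 2.92 ± 0.64 on the log2 scale (FDR = 0.00242), the 1 call among the 6 genes, against 5.38% of 16318 genes with a larger effect at D15. That call remained with each of the 16 hearts left out in turn. The effects on Ccr2 (2.49 ± 0.99 log2, FDR = 0.0446), Ccl7 (1.94 ± 0.74 log2, FDR = 0.0369) and Ccl2 (1.74 ± 0.79 log2, FDR = 0.0763) were not called as changed. Values for Ccl12 (1.10 ± 0.60 log2, FDR = 0.131) and Ly6c2 (1.05 ± 1.03 log2, FDR = 0.409) were smaller still. Without D10 EAM replicate 1, 5 of the 6 were called, all but Ccl12 (1.20 log2, FDR = 0.111), as were 12.3% of all genes. Over the same days the effect also grew for Ptprc (2.58 ± 0.65 log2, FDR = 0.00445) and Csf1r, the gene of the macrophage growth factor receptor (1.79 log2, FDR = 0.00204), and the part of leukocyte content in the change of Ccl8 was not tested.

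From D15 to D21, edgeR's quasi-likelihood test called 0 of the 6 genes, in either direction, against 0.919% of genes with a smaller effect at D21. Estimates were below 0 for Ccl7 (-1.74 ± 0.75 log2), Ccl2 (-1.65 ± 0.80), Ccr2 (-1.59 ± 0.98), Ly6c2 (-1.20 ± 1.05) and Ccl8 (-0.46 ± 0.64) and above 0 for Ccl12 (0.63 ± 0.61). Ccl7 (FDR = 0.0862) was the 1 gene of the 6 with an unadjusted p under 0.05, a mark reached by 40.7% of genes in either direction, and no alternative test that was run called any of the 6. The D21 EAM hearts spanned 7.49-fold for Ccl2 and 7.37-fold for Ccr2, and a smaller effect at D21 was not detectable beyond the spread between hearts.

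Control hearts were not level across the days. Ccl12 fell from a mean of 9.36 ± 3.69 CPM (SD, n = 4) at D10 to 2.65 ± 1.10 CPM at D21 (-1.83 ± 0.32 log2, FDR = 0.00529 by edgeR's quasi-likelihood test), the 1 call among the 6 genes, against 0.353% of 15311 genes lower in that comparison. This call was lost without D10 control replicate 2 or 3 or D21 control replicate 1, 2 or 3, and when the replicate number entered as block, and it was kept without each of the other control hearts. From D10 to D15 the control values of Ccl7 (-1.96 ± 0.42 log2, FDR = 0.0364) and Ccl12 (-1.58 ± 0.31 log2, FDR = 0.0292) did not pass, as against 0.0718% of genes that were called lower, nor did Ccl8 from D10 to D21 (-1.28 ± 0.35 log2, FDR = 0.0336). Between D15 and D21 none of the 6 was called (0.0% of genes), and all 6 FDR values were at least 0.615. Without D10 control replicate 4, Ccl7 and Ccl12 from D10 to D15 were called as well, as were 0.301% of genes. The neutrophil transcripts S100a8, S100a9, Cxcr2, Csf3r, Mmp9, Ly6g and Retnlg, summed, were at 135 to 246 CPM in D10 controls, 17.6 to 84.5 CPM in D15 controls and 13.8 to 100 CPM in D21 controls, and their part in the ligand levels was not tested.

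To compare the ligands with each other, counts were divided by exon length (511 bases for Ccl8, 537 for Ccl12, 801 for Ccl7 and 1138 for Ccl2 in GENCODE M21) and each gene's share of the 4-ligand sum was taken in each heart. These shares are a description, with no test, and because they add up to 100% they do not vary independently. Ccl8 held the largest share in all 24 hearts, but this order rests on the lengths, which are approximate because the reads were counted on an earlier Ensembl annotation: in raw counts Ccl8 was highest in 17 hearts, Ccl2 in 4 and Ccl7 in 3. Its mean share was 46.0 ± 6.8% (SD, n = 4) in D10 controls and 37.7 ± 4.5% in D10 EAM hearts, 52.3 ± 15.9% and 66.7 ± 11.4% at D15, and 45.0 ± 5.7% and 68.2 ± 5.6% at D21. In D21 EAM hearts the Ccl8 share ran from 61.7 to 75.04%, above the 40.5 to 52.9% of the controls. The Ccl12 share was 19.2 ± 5.5% in D15 controls and 6.07 ± 1.17% in D15 EAM hearts, whose highest value (7.00%) was below the lowest control (14.2%).

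Ccl2 and Ccl7 together made up less of the ligand sum in EAM hearts at D21 than at D10. The mean Ccl2 share was 18.9 ± 5.5% in D10 EAM, 13.5 ± 4.9% in D15 EAM and 9.63 ± 2.95% in D21 EAM hearts, against 11.9 ± 3.2%, 12.4 ± 5.6% and 17.4 ± 3.4% in the controls. For Ccl7 the EAM means were 25.4 ± 2.4%, 13.7 ± 5.7% and 10.1 ± 1.5%, against 21.7 ± 5.2%, 16.2 ± 6.1% and 22.8 ± 3.6%. Of the 12 combinations of ligand and day, 4 had separate ranges: Ccl12 at D15 and Ccl2, Ccl7 and Ccl8 at D21.

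**Figure D4:**
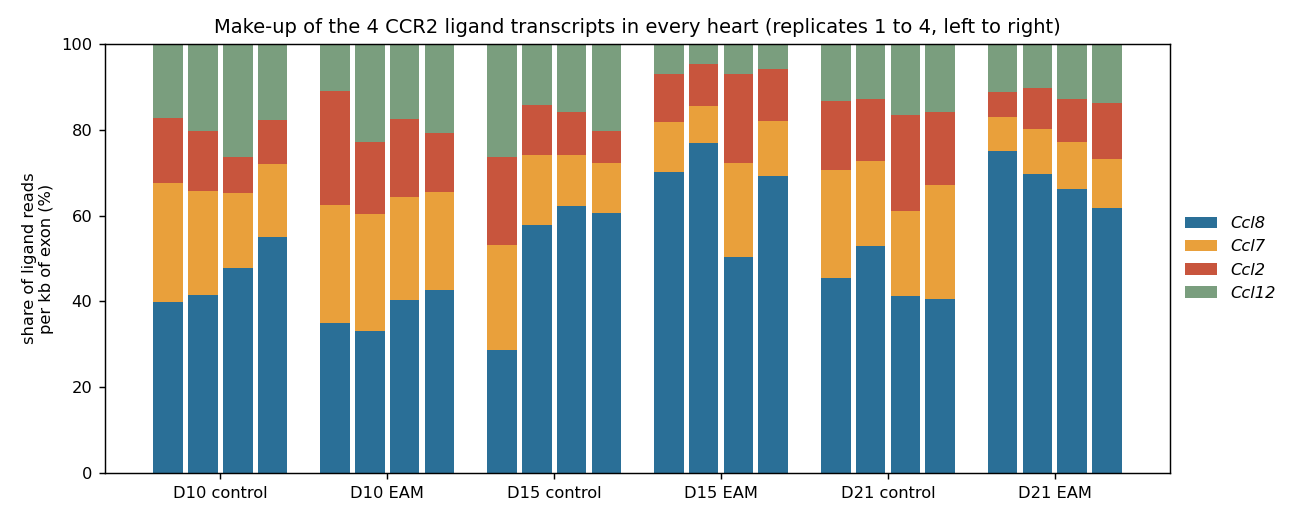
Share of Ccl8, Ccl7, Ccl2 and Ccl12 in the sum of the 4 ligands, in percent of reads per kilobase of exon, with 1 bar per heart (replicates 1 to 4 from left to right in each group). The blue Ccl8 segment is the tallest in all 24 bars and takes 61.7 to 75.04% in D21 EAM hearts, above their controls, while D15 EAM and control bars overlap, and the green Ccl12 segment is smallest in D15 EAM hearts.

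Reads of each gene were also set against reads of Ptprc in the same heart, which shows whether a gene and the pan-leukocyte transcript moved unequally. The 18 ratios (6 genes on 3 days) were compared between arms with a two-sided exact permutation test, whose smallest possible p with 4 against 4 hearts is 0.0286, and adjusted over the 18. No ratio passed an adjusted p of 0.05, which this design could reach only if most ratios had the smallest p. The smallest p was reached by Ccr2 and Ccl12 at D15, in opposite directions (exact permutation p = 0.0286, adjusted p = 0.257 for each). Per 100 Ptprc reads, Ccr2 had 68.8, 80.0, 59.1 and 50.9 reads in D15 controls and 137, 89.2, 142 and 109 in D15 EAM hearts, a mean log2 difference of 0.88. Ccl12 had 20.6, 18.004, 15.5 and 16.03 reads per 100 Ptprc reads in D15 controls and 5.84, 3.15, 5.85 and 5.07 in D15 EAM hearts, a mean log2 difference of -1.85.

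For the other ligands at D15 the ratio to Ptprc differed by -0.05 (Ccl2), -0.46 (Ccl7) and 0.19 (Ccl8) on the log2 scale, and the groups overlapped. At D21 Ccl8 was 1.06 higher relative to Ptprc (exact permutation p = 0.0571, adjusted p = 0.257) and Ccr2 0.64 higher (exact permutation p = 0.0571, adjusted p = 0.257), while the difference of Ccl7 was -0.71 (exact permutation p = 0.0857, adjusted p = 0.257). The D21 differences of Ccl2 and Ly6c2 were both -0.43, and that of Ccl12 was 0.17. At D10 the largest difference was that of Ccl2, 1.04 (exact permutation p = 0.0857, adjusted p = 0.257). With Csf1r in place of Ptprc, the D15 difference of Ccl12 shrank to -0.34 (adjusted p = 0.333 by exact permutation) and that of Ccr2 was 2.39. That of Ccl8 was 1.71 at D15 and 2.19 at D21, and that of Ccl12 was 1.29 at D21. The D15 differences of Ccl2 and Ccl7 were 1.47 and 1.05, and that of Ly6c2, -0.70 against Ptprc, was 0.81.

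**Figure D5:**
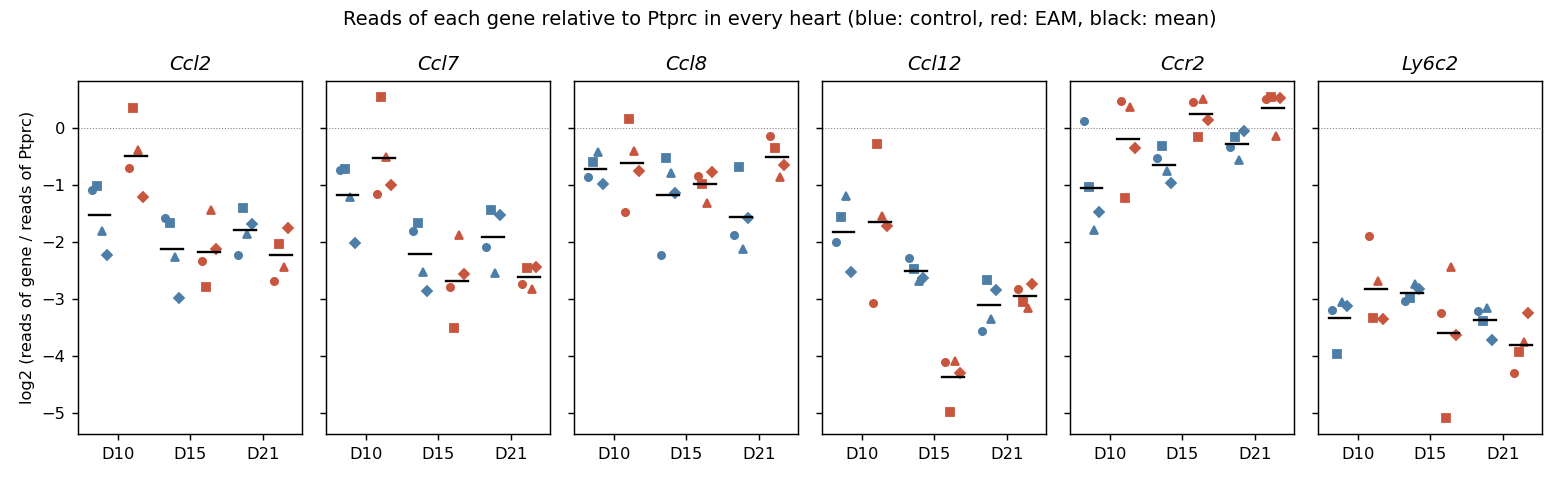
Log2 ratio of the reads of each gene to the reads of Ptprc in every heart by day (blue, control; red, EAM; marker shapes are replicate numbers 1 to 4 as circle, square, triangle and diamond; black lines are means of 4 hearts). At D15 the red Ccl12 points lie below all blue ones and the red Ccr2 points above all blue ones, and other panels show overlap at D15.

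The genes whose profile over the 24 hearts was most like that of each member were ranked by the root mean square difference of centred log2(CPM + 0.5) values among the 14282 genes whose mean reached 1 CPM. This is a description over hearts that share arm and day. Ccl2 and Ccl7 were each other's closest gene (0.34), followed for Ccl2 by Ch25h (0.45), Cxcl1 (0.45), Selp (0.50) and Ptx3 (0.54). After Ccl2, Ccl7 was closest to Cxcl1 (0.42), Sele (0.48), Ifitm1 (0.51) and Serpina3m (0.58). Cxcl1 encodes a neutrophil attractant, and Selp and Sele encode selectins of activated endothelium. Ccl8 was closest to the chemokine genes Ccl9 (0.39) and Ccl6 (0.40), then to Fcgr2b (0.41), Cfp (0.41) and Mmp3 (0.42), and its closest fellow member, Ccl2, ranked 470.

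Ccl12 was closest to Sele (0.53), Junb (0.55), Lbp (0.55), Serpina3e-ps (0.56) and Sdf2l1 (0.58). Its distance from Ccl8, its neighbour on the chromosome, was 0.95. Ccr2 was closest to Clec12a (0.27), a lectin receptor of myeloid cells, then to Napsa (0.33), Slamf8 (0.41), Gpr132 (0.42) and H2-DMa (0.42). Ly6c2 was closest to Ifng (0.38), the interferon-γ gene, then to Ifi44l (0.45), Samhd1 (0.45), Ifi214 (0.46) and Sectm1a (0.46), and its distance from Ccr2 was 0.95. Ifng was close to 0 in controls (means of 0.014, 0.028 and 0.050 CPM at D10, D15 and D21), where the added 0.5 compresses its differences: its fitted D15 fold change was 7.14 log2, against 3.53 log2 for Ly6c2.

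Other genes of the pathway were taken from lists, none of which had a gene called at D10. The counts that follow stand beside 18.1% of all genes induced at D15 and 4.13% at D21. Of the 9 other chemokines, Ccl3, Ccl4, Ccl5, Ccl6, Ccl9, Ccl11 and Ccl1 were induced at D15, and Ccl3, Ccl5, Ccl6 and Ccl9 of 7 tested at D21. The median log2 fold change of that list at D15 was 4.47, against 0.02 for all genes. Ccl3 and Ccl1 had enough reads to be tested at D15 through the EAM hearts alone, so that they had to differ. Both enter the D15 median, and without any one of the D15 EAM hearts 5 of 7 were induced. Ccl3, at 0.24 to 0.31 CPM in D21 controls, reached the D21 filter in the same way. With 1 heart left out, at most 3 genes of the list were induced at D21. Ccl5, which attracts T cells and monocytes, went from 0.87 to 71.3 CPM at D15 (6.39 log2, FDR = 1.7e-07) and from 1.005 to 35.8 CPM at D21 (5.20 log2, FDR = 0.00477). Ccl11, which lies between Ccl7 and Ccl12 in the cluster, was induced less at D15 (1.61 log2, FDR = 0.00163) and was not called at D21 (0.42 log2, FDR = 0.233). Cx3cl1, which attracts CX3CR1+ monocytes, was at 20.6 CPM in D15 controls and 22.9 CPM in D15 EAM hearts (0.19 log2, FDR = 0.324).

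Among receptors other than Ccr2, Ccr1 (4.99 log2), Ccrl2 (1.82 log2) and Ackr1 (2.52 log2) were induced at D15. Ackr4, a scavenging receptor, was repressed at D15 (-1.70 log2, FDR = 2.1e-04). Ackr2, which removes inflammatory CC chemokines including CCL2, was at 5.29 CPM in D15 controls and 5.38 CPM in D15 EAM hearts (0.06 log2, FDR = 0.744). Of 10 genes of signalling below CCR2 (median 1.12 log2 at D15), 5 were induced at D15 and 3 at D21, against 18.1% and 4.13% of all genes. The 5, named after their values were seen, were Pik3cg, Pik3r5, Arrb2, Rac2 and Jak2, and those at D21 were Pik3r5, Arrb2 and Rac2, while the widely expressed Gnai2, Stat3, Gnb1 and Grk2 differed by less than 2-fold at D15 (0.81, 0.79, 0.60 and 0.77 log2).

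Genes of adhesion and transmigration (median 3.25 log2 at D15) were induced in 10 of 14 cases at D15 and 4 of 14 at D21, against 18.1% and 4.13% of all genes. Itgb2, the shared chain of the leukocyte integrins, went from 11.1 to 428 CPM at D15 (5.30 log2, FDR = 3.2e-08), and Itgam, its CD11b partner, from 14.4 to 431 CPM (4.94 log2, FDR = 1.6e-07). Itgb1 (0.44 log2) and Pecam1 (-0.30 log2), which the heart expresses at high levels in both arms, were not called at D15. Of 14 inducers and regulators of the ligands (median 2.37 log2 at D15), 11 were induced at D15, against 18.1% of all genes. Of these, 4 (Il6, Ifng, Il17a and Csf2) had enough reads to be tested only with all 4 EAM hearts, and without any one of those hearts the count was 7. The median also includes these 4 genes, whose fold changes all lie above it. Irf1, a transcription factor downstream of interferon-γ, rose from 45.0 to 309 CPM (2.82 log2, FDR = 4.4e-08), Nfkb1 from 77.5 to 155 CPM (1.04 log2, FDR = 1.2e-06), and Nfkbia from 75.4 to 162 CPM (1.14 log2, FDR = 0.00120). Csf1, the macrophage growth factor, was not called (0.62 log2, FDR = 6.2e-04, under 2-fold). At D21, 1 of 11 tested was induced, Il1b (4.04 log2, FDR = 0.00719), which was named after its value was seen.

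All 10 markers of classical monocytes, the cells in which Ccr2 and Ly6c2 are high, were induced at D15, and their median log2 fold change was 3.79, against 0.02 for all genes. Lyz2, the lysozyme of myeloid cells, went from 295 to 2319 CPM (3.01 log2, FDR = 1.9e-07) and Hp, haptoglobin, from 8.69 to 490 CPM (5.86 log2, FDR = 1.5e-06). F13a1 (1.36 log2) and Vcan (2.14 log2) were induced less. At D21, 3 of the 10 were called: Chil3, Hp and Lyz2. Of 6 markers of non-classical monocytes (median 2.33 log2 at D15), Treml4, Spn and Itgal were induced at D15 and Spn at D21 (Treml4 reached the D15 filter through the EAM hearts alone), whereas Cx3cr1 (0.27 log2, FDR = 0.407) and Ace (-0.06 log2, FDR = 0.725) were not called at D15.

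Markers of some other cell types were higher in the same hearts, above all those of neutrophils, T cells and NK cells, while endothelial and cardiomyocyte lists had medians below 0. Of 8 markers of resident cardiac macrophages, Mrc1 (1.54 log2) and Mertk (2.54 log2) were induced at D15, Lyve1 (0.27 log2), Folr2 (0.35 log2) and Timd4 (0.78 log2) were not, and at D21 Vsig4 was repressed (-1.50 log2, FDR = 0.00473), so that the 2 of 8 induced at D15 are near the 18.1% of all genes. All 7 neutrophil markers were induced at D15 and 1 of 7, Csf3r, at D21, and all 8 T cell markers were induced on both days, against 18.1% and 4.13% of all genes. NK cell markers were induced in 5 of 5 cases at D15 and 2 of 3 at D21, and 1 of 4 B cell markers tested at D15 was called, Cd79b, a share close to that of all genes and a call lost without any one heart other than EAM replicate 3. The T cell markers Cd8a, Cd2 and Cd5 and the NK cell markers Klrb1c and Klre1 reached the filter at D15 through the EAM hearts alone, and without any one of these hearts 5 T cell and 3 NK cell markers were tested and induced. In the fit of control hearts, 4 of 8 T cell and 2 of 5 NK cell markers had enough reads to be tested. Any other marker tested at D21 needed reads in EAM hearts to reach the filter, so the D21 counts are not a free comparison with 4.13%. With 1 D21 heart left out, 0 to 6 T cell and 0 to 2 NK cell markers were induced. In the fibroblast list Col1a1 and Col1a2 were induced on both days, and Siglecf was the 1 eosinophil marker tested at D15 (6.32 log2), through its reads in the EAM hearts alone, with Epx at 0 in all control hearts. Of 6 endothelial markers Kdr was repressed at D15 (-1.24 log2), and of 6 cardiomyocyte markers Tnni3, Actc1 and Pln were. The summed neutrophil markers ran from 603 to 960 CPM and the T cell markers from 60.8 to 85.4 CPM in D15 EAM hearts, against 17.6 to 84.5 CPM and 2.42 to 3.42 CPM in controls. The median log2 difference at D15 came to 0.67 over the resident macrophage markers, 3.42 for neutrophils, 4.59 for T cells, 4.48 for NK cells, 1.49 for B cells, 0.63 for fibroblasts, -0.51 for endothelium and -1.35 for cardiomyocytes. Which of these cells carried the transcripts of the 6 genes was not tested.

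Ly6c2 was also compared with the paralogs of its cluster, whose median log2 fold change at D15 was 1.51. Ly6c1, its nearest relative and a transcript of endothelium, was at 86.2 CPM in D15 controls and 92.3 CPM in D15 EAM hearts (0.14 log2, FDR = 0.590) and was not called at D10 or D21 either (0.14 and 0.03 log2). Ly6i, which reached the D15 filter through the EAM hearts alone, was induced at D15 (from 0.30 to 48.0 CPM, 7.31 log2, FDR = 2.2e-07) and at D21 (6.40 log2, FDR = 0.00709). Ly6a and Ly6e were induced at D15 (1.42 and 1.59 log2) and not called at D21, and Ly6d and Ly6k had too few reads to be tested within a day.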

How the data were processed

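The authors aligned 75 bp read pairs of stranded libraries to GRCm38 with HISAT2 2.0.4, removed duplicates with Picard and deposited raw counts per Ensembl gene from featureCounts. The deposited counts hold 41388 genes and 92 spike-in controls with 0 reads, and the tables per heart and for the series differ in 0 cells. Gene positions and exon lengths are from GENCODE M21, and 40340 genes had a symbol. The members, gene lists and tests were chosen with earlier results of these data known.

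Groups came from the sample titles. For each day, a gene was kept if 4 or more of the 8 hearts had 10 or more reads and counts were TMM-normalized and tested with edgeR's quasi-likelihood test (edgeR 4.0.16, R 4.3.3), with Benjamini-Hochberg adjustment, an FDR limit of 0.01 and a 2-fold limit. Changes of the EAM effect between days were contrasts in a fit of all 24 hearts, and control days were compared in a fit of 12 controls. The standard error is the absolute log2 fold change divided by the square root of the F statistic. Ratios to Ptprc used log2((count + 0.5)/(Ptprc count + 0.5)) and SciPy 1.17.1. In whole libraries 3 reads equal 0.120 to 0.190 CPM, for counting error only. The fits were tested on simulated data.

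Genes could be named if they were 1 of the 6 members, Ptprc, any gene of a list of 9 or fewer, 1 of the 4 with the highest mean CPM of a longer list, a chromosomal neighbour or 1 of the 5 most similar genes of a member. Of lists of 9 or fewer, some genes are given only in the counts. Csf1r and genes said to be named after their values were seen are exceptions, as are called genes of longer lists. Alternatives were DESeq2 1.42.0, limma-voom 3.58.1, edgeR's likelihood ratio test, other scalings, filters, FDR and controls, a replicate block, and leaving out each heart.

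Replicate numbers were checked as pairs by correlating the deviations of same-numbered EAM and control hearts from their group means. At D21 all 4 correlations were positive (0.104, 0.181, 0.313 and 0.25), although EAM replicate 1 correlated best with a control of another number. The numbers were taken as pairs there on this basis alone, from the same expression values and with no label that gives a pairing. At D10 (0.38, -0.0849, -0.0908 and 0.406) and D15 (0.0384, -0.0796, -0.0293 and -0.102) they were not. One gene of the receptor list is not reported here.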

Additional observations from a re-analysis of the deposited data

Results flagged for a closer look

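Of 36 sets of 4 hearts (6 genes in 6 groups) checked for a heart far from the rest, 2 were flagged, about what chance gives at 1 in 20. Ly6c2 in D10 EAM replicate 1 (51.7 CPM, the next highest 8.75 CPM) had a gap of 0.8771 of the range of its group, above Dixon's 95% limit for 4 values. Ccl8 in D10 control replicate 4 (12.1 CPM, the other 3 at 21.2 to 22.2 CPM) had a gap of 0.8961. Among 12 tests of a changed EAM effect between days, 1 passed: the effect on Ccl8 grew by 2.9178 on the log2 scale from D10 to D15 (FDR = 0.00242 by edgeR's quasi-likelihood test), from 2.17-fold at D10 to 17.0-fold at D15, with all 4 EAM hearts above all controls on both days. The effect on Ptprc grew over the same days too (2.58 log2, FDR = 0.00445 by the same test).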

How the results depend on the processing

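The D15 result held throughout, with 6 of 6 genes induced under every alternative, and the 0 calls for the change from D15 to D21 did not change either. The D10 count of 0 rose to 6 with all 12 controls and stayed at 0 otherwise. At D21 the 2 calls became 6 with DESeq2, the likelihood ratio test or an FDR under 0.05, 5 with all 24 hearts in one fit, with all 12 controls or with the replicate block, and 0 with limma-voom, and leaving out single hearts gave 0 to 6. The replicate block changed no other call of the 6 genes at D21. For the change from D10 to D15 the 1 call became 3 with the replicate block or an FDR under 0.05, and 1 to 5 with a heart left out. For the control days the 1 gene became 2 with DESeq2 or without the low-count filter, 0 with the replicate block, and 0 to 2 with a control left out. At D10, D15 and in the fits of several days the samples share only a number, and the block left the D10 and D15 counts at 0 and 6. The cause of these shifts was not tested.

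Some uncalled values changed sign. With Csf1r in place of Ptprc the ratios became 1.47 (Ccl2, D15), 0.69 (Ccl2, D21), 1.05 (Ccl7, D15), 0.42 (Ccl7, D21), 0.81 (Ly6c2, D15) and 0.69 (Ly6c2, D21). With single hearts left out, values crossed 0 for Ccr2 in controls from D10 to D15 (-0.9466 to 0.0499) and from D10 to D21 (-0.2452 to 0.7561), for Ccl8 in controls from D15 to D21 (-0.4024 to 0.123), and for the ratios to Ptprc of Ccl8 at D10 (-0.1594 to 0.3842) and D15 (-0.1615 to 0.4089), Ccl12 at D10 (-0.2874 to 0.64) and Ccl2 at D15 (-0.332 to 0.1585). Of all single-gene, list and share values with a heart left out, 1130 kept their direction and side of the threshold, 127 lost the threshold or fell in count, 19 gained, and 16 changed sign. Under other settings 847 kept them, 18 lost, 111 gained, 6 changed sign and 15 shares moved with raw counts. Depth limits the lowest genes: lists with few reads, such as eosinophil markers, had 0 to 1 genes tested.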
